A study of Mus musculus with 5 samples.

Results

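The 6 genes described here are the SOXB genes Sox1, Sox3 and Sox21 and the SOXC genes Sox4, Sox11 and Sox12, measured by RNA-seq in mouse forebrain at E12.5, a mid-gestation stage at which cortical neurogenesis has begun. They were chosen by gene symbol, without regard to their values, and all 6 were found among the 56196 rows of the count table, of which 27919 carried a symbol. The study compared forebrain with and without the gene Eed, which encodes a subunit of PRC2, the Polycomb complex that places a silencing methyl mark on histone H3 at developmental genes. One group holds 2 libraries labelled wild type and the other 3 libraries labelled EedcKO, all untreated littermates of strain C57BL/6 sampled at the same age, with polyA RNA taken from frozen tissue. Which driver deleted Eed, and in which cells, is not given in the labels used here. The labels do not say whether each library is from an embryo of its own, and part of the library-to-library spread behind the p-values may be technical.

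SOX proteins bind DNA through a high mobility group (HMG) box and act with partner factors, among them POU proteins. Sox1 and Sox3, with Sox2, form the SOXB1 class, which keeps neural progenitors undifferentiated, whereas Sox21 is a SOXB2 protein that counteracts SOXB1 activity and favours neurogenesis. Sox4, Sox11 and Sox12 form the SOXC class, which acts with partial redundancy in newborn neurons and their precursors.

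All 6 genes code their protein on a single exon, and the stretch in which their coding sequences were most alike lay in the region of the HMG box. In the GENCODE M21 models on mm10, 136 of 237 bases (79 codons) in that stretch were identical in all 6. A part of it, 20 codons long, is shown to let the 2 classes be seen side by side, with capitals for the 41 bases shared by all 6 genes and each sequence read 5′ to 3′ on the coding strand.
Sox1 (chr8:12396667-12396726, plus strand, codons 103 to 122): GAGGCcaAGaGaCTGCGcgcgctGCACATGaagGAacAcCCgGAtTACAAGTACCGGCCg
Sox3 (chrX:60892786-60892845, minus strand, codons 196 to 215): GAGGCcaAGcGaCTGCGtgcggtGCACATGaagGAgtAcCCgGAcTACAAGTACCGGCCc
Sox21 (chr14:118235399-118235458, minus strand, codons 60 to 79): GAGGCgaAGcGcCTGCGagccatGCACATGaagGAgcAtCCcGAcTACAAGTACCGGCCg
Sox4 (chr13:28952632-28952691, minus strand, codons 111 to 130): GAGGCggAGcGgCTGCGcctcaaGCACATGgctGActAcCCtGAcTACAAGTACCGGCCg
Sox11 (chr12:27342049-27342108, minus strand, codons 101 to 120): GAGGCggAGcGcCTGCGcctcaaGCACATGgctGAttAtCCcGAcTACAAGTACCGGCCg
Sox12 (chr2:152397366-152397425, minus strand, codons 92 to 111): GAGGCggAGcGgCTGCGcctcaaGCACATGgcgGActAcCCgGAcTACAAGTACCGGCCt
Over the 79 codons, base identity within SOXB was 89% for Sox1 and Sox3, 88.2% for Sox3 and Sox21 and 86.9% for Sox1 and Sox21. Within SOXC it was 89.5% for Sox4 and Sox11, 85.2% for Sox4 and Sox12 and 84.4% for Sox11 and Sox12. Between a SOXB and a SOXC gene it was 66.7% to 73%. The longest run of identical bases between any pair of transcripts was 48, for Sox4 and Sox11, followed by 45 for Sox1 and Sox3. Reads from such runs could be shared between genes, but neither the read length nor the handling of shared reads is given in the labels used here.

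Sox1 (ENSMUSG00000096014.1) spans chr8:12395295-12400126 and Sox3 (ENSMUSG00000045179.9) spans chrX:60891366-60893430. Sox21 (ENSMUSG00000061517.8) spans chr14:118233232-118237030, and Sox4 (ENSMUSG00000076431.4) spans chr13:28948919-28953713. Sox11 (ENSMUSG00000063632.6) spans chr12:27334264-27342574 and Sox12 (ENSMUSG00000051817.8) spans chr2:152393611-152398063. The long noncoding genes Gm4675 and Gm26735 overlap Sox21 and Sox4, respectively, on the opposite strand. Whether counting used strand is not stated, so reads from those overlaps cannot be assigned to 1 of the 2 genes. Sox1 lies within the span of the noncoding gene Sox1ot on the same strand and shares 0 exonic bases with it.

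Promoter sequences of 300 bases, from 250 before to 50 after the RefSeq start (GRCm38.p6), matched all members but Sox3. Their CpG content ranged widely against a median of 7 sites over 32851 promoters. Sox12 held 47 CpG sites and Sox1 held 37, and 98.6% and 94.4% of promoters held fewer. Sox21 held 22 (76.9% held fewer), Sox11 held 21 (75.2%) and Sox4 held 12 (60.4%). The POU octamer ATGCAAAT, searched on both strands, was in 1.74% of all promoters and in 2 of the 5 matched ones, Sox12 and Sox1. It began at position -195 from the RefSeq start in Sox12, but at position 19, after the start, in Sox1. In the GENCODE model the Sox1 exon starts at chr8:12395295. The Sox1 octamer and most of the 300 bases thus lie inside that exon and are not upstream of it. Both windows are shown because POU proteins are partners of SOX proteins, with the octamer in capitals and on the strand of the gene.
Sox12 (chr2:152398223-152398252, minus strand): gcgattgggagATGCAAATgctgagttctc
Sox1 (chr8:12395526-12395555, plus strand): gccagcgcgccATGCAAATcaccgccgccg
The SOX core ACAAAG was in 18.7% of all promoters and ACAATG in 12.6%, and neither was in the 5 matched ones. These motifs were chosen after the promoters had been seen, and a match describes letters, not binding.

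The libraries held 4820630 to 5026381 counts each. Eed had 404 counts in wild type 1 and 251, 233 and 247 in the 3 EedcKO libraries, but 238 in the library labelled wild type 2, so Eed in that library goes against its label, and results that rest on it are given with and without it. Over all genes, however, that library was nearer to wild type 1 (chi-square per gene 8.06) than to the EedcKO libraries (8.88 to 9.79). Wild type 1 in turn lay at 7.76 to 10.4 from the EedcKO libraries, which lay at 2.56 to 4.61 from each other. Summed counts of 39 HOX genes, PRC2 targets normally silent in forebrain, were 62 to 184 in EedcKO, with 134 for the library labelled wild type 2 and 2 for wild type 1. Both libraries labelled wild type and EedcKO 1 had 3127 to 5239 counts of Xist, which is made from the inactive X of female cells, and 0 to 12 counts of 5 Y-linked genes. EedcKO 2 and EedcKO 3 had 4 and 1 counts of Xist and 1670 and 1406 of the Y-linked genes. Forebrain identity was checked with a list of 6 markers, all of which had counts enough to be tested. Among them, Tbr1, a factor of early cortical neurons, stood at 201 ± 4.7 CPM (counts scaled for sequencing depth, SD, n = 2) in the libraries labelled wild type and 300 ± 36 (n = 3) in EedcKO.

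No member passed the test between EedcKO and wild type. With edgeR's quasi-likelihood test and Benjamini-Hochberg adjustment, 0 of 6 members were past an adjusted p of 0.05, against 3.2% of the 13989 genes tested (2.17% lower in EedcKO and 1.04% higher). DESeq2 and limma-voom also called 0 of 6. At an unadjusted p under 0.05, 1 member, Sox1, was past the threshold, against 17.2% of all genes. The CPM ranges of the 2 groups did not overlap for 2 of 6 members, Sox1 and Sox21, against 33.8% of all genes. Both shares of the members lay near the background. In bulk tissue, fewer cells of a type and less RNA per cell cannot be told apart.

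**Figure D1:**
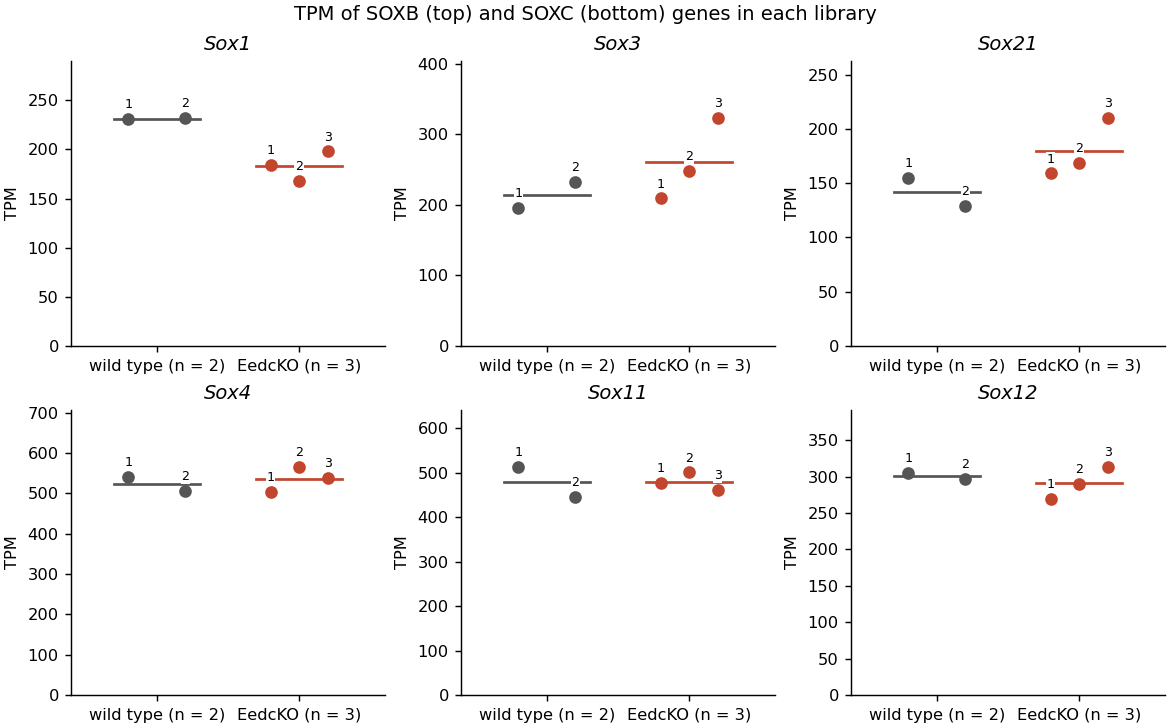
Expression in TPM (scaled for gene length and depth) of the 6 genes in each library, with points for libraries and lines for group means. Sox1 sits at 231 and 232 in the libraries labelled wild type and at 168 to 198 in EedcKO, whereas the points of Sox4, Sox11 and Sox12 from both groups interleave.

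TPM values, transcript levels scaled for gene length and sequencing depth, averaged higher for each SOXC member than for each SOXB member in both groups. In EedcKO 3, however, Sox3 (323 TPM) was above Sox12 (313). Sox2, a SOXB1 gene outside the 6, stood at 451 to 481 TPM across the 5 libraries, above Sox12 (269 to 313). Averaged over the libraries labelled wild type (n = 2), Sox4 stood at 523 ± 24.1 TPM (SD), Sox11 at 479 ± 47.3 and Sox12 at 301 ± 5.76. Sox1 followed at 232 ± 0.936, Sox3 at 214 ± 25.3 and Sox21 at 142 ± 18.2. In that group the values of Sox4 and Sox11 overlapped, as did those of Sox1 and Sox3. Within each library, however, Sox4 was above Sox11 in 5 of 5, by ratios of 1.05, 1.13, 1.05, 1.13 and 1.17. In EedcKO (n = 3) the order of the means was Sox4 (536 ± 30.5), Sox11 (480 ± 20.1), Sox12 (291 ± 22), Sox3 (260 ± 57.7), Sox1 (183 ± 15.1) and Sox21 (179 ± 27). There the values of Sox12 and Sox3 overlapped, as did those of Sox1 and Sox21. Sox4 and Sox11 were among the most abundant transcripts of the tissue: by TPM, Sox4 ranked 13 to 28 and Sox11 ranked 24 to 49 across the 5 libraries. By raw count Sox11, the longest of the 6 genes, ranked 2 to 5, behind Map1b, a microtubule protein of growing axons, which was first in every library.

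Sox1, a SOXB1 factor of early neural progenitors, had the smallest p of the 6. Wild type 1 held 1106 counts of it (233 CPM), and the library labelled wild type 2 held 1142 (232 CPM). There were 874, 810 and 970 counts (182, 168 and 199 CPM) in EedcKO 1, 2 and 3. The 95% Poisson interval of the highest EedcKO count was 910 to 1033 and that of the lowest wild type count 1042 to 1173, so all 3 EedcKO libraries lay below both others beyond counting error. The fitted ratio of EedcKO to wild type was 0.787 (95% interval 0.672 to 0.921), or -0.35 on the log2 scale with a standard error of 0.10. This did not pass (adjusted p = 0.111, edgeR). The log2 difference was -0.34 without the library labelled wild type 2. It was -0.35 for EedcKO 1 alone, the EedcKO library with Xist counts like those of the libraries labelled wild type. That fit rests on a single EedcKO library, which gives no spread within its group, and the part of sex in the Sox1 difference was not tested. Across all 17 alternative fits the log2 difference ran from -0.41 to -0.29, and the lowest adjusted p was 0.064 (edgeR, library size alone).

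Sox3, the X-linked SOXB1 gene, varied most among the 6, with a highest TPM 1.65 times the lowest. Its CPM was 88.5, 106 and 139 in EedcKO 1, 2 and 3, with 84.5 for wild type 1 and 99 for the library labelled wild type 2. The groups overlapped, with EedcKO 1 between the libraries labelled wild type and EedcKO 3 apart above all others. The fitted log2 difference was 0.28 with a standard error of 0.19 (95% interval -0.16 to 0.71, adjusted p = 0.526, edgeR). It was -0.05 for EedcKO 1 alone, 0.08 without EedcKO 3, 0.15 without wild type 1 and 0.40 without the library labelled wild type 2. EedcKO 2 and EedcKO 3 were the libraries with Y-linked counts, and in them genotype and sex cannot be told apart.

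Sox21, the SOXB2 gene, stood at 124, 133 and 166 CPM in EedcKO 1, 2 and 3, at 123 in wild type 1 and at 101 in the library labelled wild type 2. The groups did not overlap, but wild type 1 and EedcKO 1 were almost level, and EedcKO 3 was again the highest. The fitted ratio was 1.26 (95% interval 0.991 to 1.6), with a log2 difference of 0.33, a standard error of 0.15 and an adjusted p = 0.309 by edgeR. The log2 difference was 0.46 without wild type 1, 0.21 without the library labelled wild type 2, 0.20 without EedcKO 3 and 0.15 for EedcKO 1 alone. It was positive in all 17 alternative fits.

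The 3 SOXC genes differed little between libraries. Sox4, which promotes the survival and differentiation of neuronal precursors, stood at 495, 561 and 538 CPM in EedcKO 1, 2 and 3, at 541 in wild type 1 and at 502 in the library labelled wild type 2. The EedcKO values of Sox4 reached both below and above those of the other group. The fitted ratio of EedcKO to wild type for Sox4 was 1.02, with a 95% interval of 0.857 to 1.21 (adjusted p = 0.935, edgeR). Sox11, which acts with Sox4 in neuronal differentiation and axon growth, stood at 814, 861 and 797 CPM in EedcKO, at 890 in wild type 1 and at 767 in the library labelled wild type 2. All 3 EedcKO values of Sox11 lay between the libraries labelled wild type, and the fitted ratio was 0.994 (0.825 to 1.2, adjusted p = 0.985, edgeR). Sox12, the third SOXC gene and a weaker activator than Sox11, stood at 245, 267 and 290 CPM in EedcKO, at 284 in wild type 1 and at 273 in the library labelled wild type 2. The groups overlapped, and the fitted ratio was 0.961 (0.814 to 1.13, adjusted p = 0.84, edgeR). Without the library labelled wild type 2, the log2 difference was -0.02 for Sox4, -0.11 for Sox11 and -0.08 for Sox12. Missing the threshold does not show that the groups were equal, and these libraries remain compatible with differences anywhere within these intervals.

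**Figure D2:**
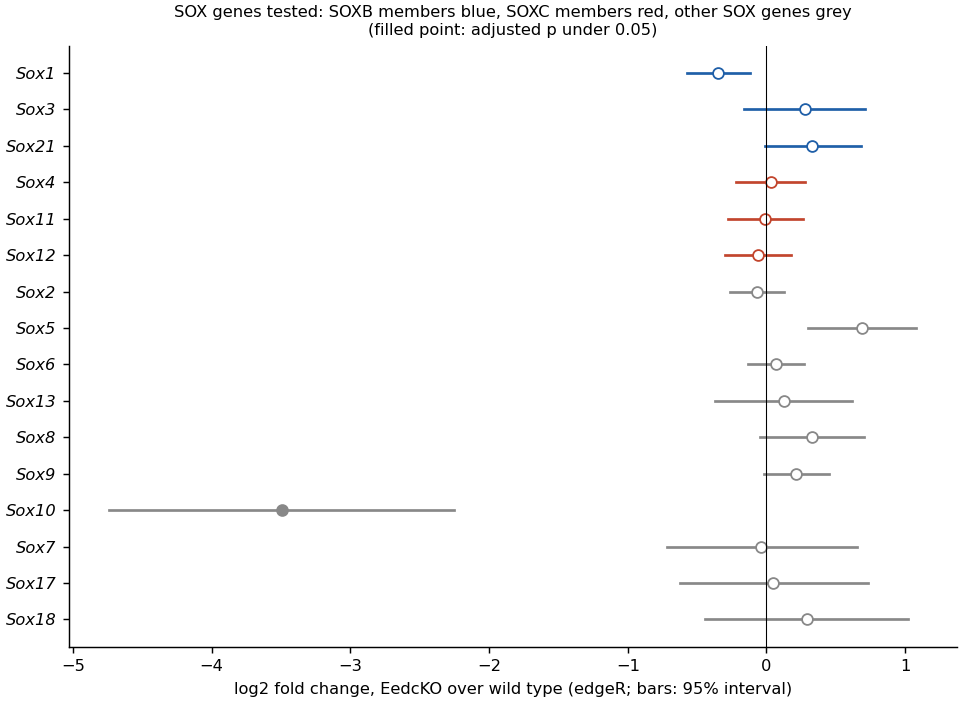
Log2 difference (EedcKO over wild type) of the 6 members and the other SOX genes tested, with points for the fitted value and bars for the 95% interval. The interval of Sox1 lies below 0 from -0.57 to -0.12, those of the other 5 members include 0, and Sox10 lies furthest from 0.

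Across all 5 libraries the SOXC genes were steadier than most genes. The SD of log2 CPM was 0.0764 for Sox4, 0.0866 for Sox11 and 0.0936 for Sox12, and 10.3%, 14.3% and 17% of tested genes had a smaller one. It was 0.21 for Sox1, 0.256 for Sox21 and 0.281 for Sox3, against a median of 0.184 over all genes. Abundant genes vary less, and the median was 0.125 among those averaging 6 or more on the log2 CPM scale.

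**Figure D3:**
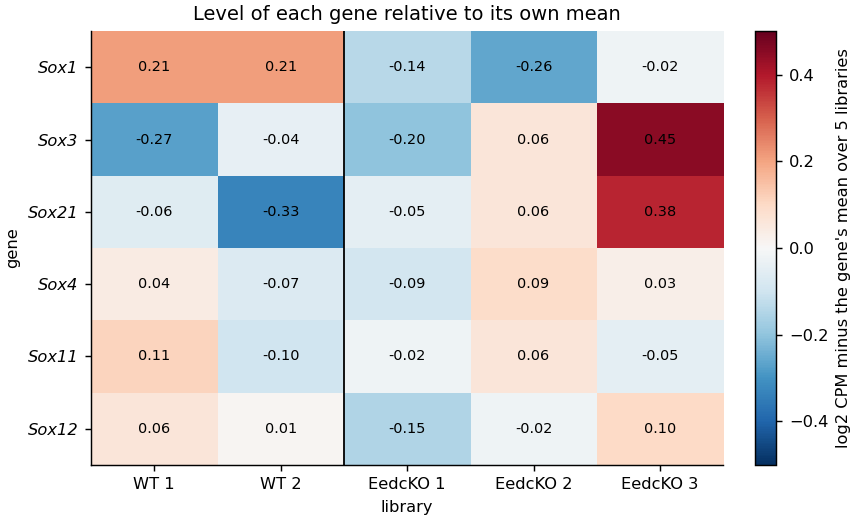
Log2 CPM of each member in each library, centred on the gene's mean over the 5 libraries. Sox3 and Sox21 are both highest in EedcKO 3, at 0.45 and 0.38, while Sox1 is 0.21 in both libraries labelled wild type and at or below -0.02 in EedcKO.

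Within SOXB, the order of Sox1 and Sox3 differed between the groups. The TPM ratio of Sox1 to Sox3 was 0.88, 0.67 and 0.61 in EedcKO 1, 2 and 3 and 1.18 in wild type 1. Both genes had 232 TPM after rounding in the library labelled wild type 2. Sox3 was thus the higher in 3 of 3 EedcKO libraries and in neither of the others. Sox1 made up 39.7% and 39.2% of summed SOXB TPM in the libraries labelled wild type and 33.4%, 28.6% and 27.1% in EedcKO. Sox21 made up 26.6% and 21.7%, against 28.7%, 28.9% and 28.7%. The shares of Sox3 overlapped, at 33.7% and 39.1% against 37.9%, 42.4% and 44.2%. The SOXB sum itself was 581 and 593 TPM against 553, 585 and 731, with overlap between the groups. Summed SOXC TPM was 1357 and 1248 against 1252, 1356 and 1312, and the SOXC sum was 1.8 to 2.34 times the SOXB sum in the 5 libraries. The SOXB sum leaves out Sox2, a SOXB1 gene at 451 to 481 TPM, so this ratio does not compare the whole classes.

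**Figure D4:**
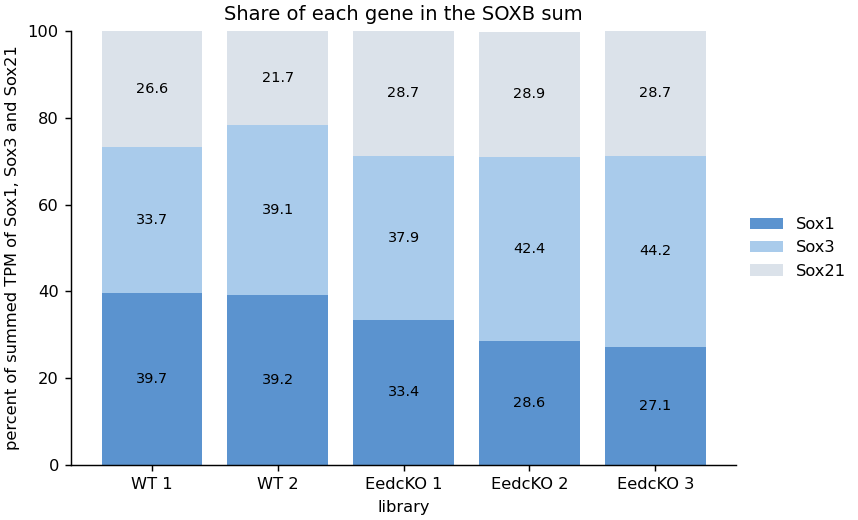
Shares of summed TPM in percent, as stacked bars for each library. The share of Sox1 is 39.7% and 39.2% in the libraries labelled wild type and 27.1% to 33.4% in EedcKO.

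Sox2, the SOXB1 gene closest in role to Sox1 and Sox3, was level: 207 and 203 CPM in the libraries labelled wild type and 190, 193 and 204 in EedcKO (log2 difference -0.07, adjusted p = 0.768, edgeR). Of the summed TPM of Sox1, Sox2 and Sox3, Sox1 held 25.4% and 24.7% in the libraries labelled wild type and 21.8%, 19.3% and 19.8% in EedcKO. Of 13 other SOX genes listed, 10 could be tested. By edgeR 0 rose and 1, Sox10, fell, against 1.04% and 2.17% of all tested genes, whereas DESeq2 called Sox5 too. Sox10, a neural crest and oligodendrocyte factor, had 42 and 28 counts in the libraries labelled wild type and 5, 1 and 3 in EedcKO (log2 difference -3.49, standard error 0.53, adjusted p = 0.021, edgeR). This call held without the library labelled wild type 2 (adjusted p = 0.00791) and was lost without EedcKO 2 (adjusted p = 0.0653) and without EedcKO 3 (adjusted p = 0.143). Sox5, a SOXD gene of deep-layer cortical neurons, had 130 and 96.6 CPM against 162, 215 and 171 (log2 difference 0.69, adjusted p = 0.0766, edgeR). In edgeR it rose without wild type 1 (adjusted p = 0.0186) and with library size alone (adjusted p = 0.0344), but not without the library labelled wild type 2 (adjusted p = 0.115). DESeq2 called it higher (adjusted p = 0.00521).

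The neighbouring transcript Sox1ot stood at 215, 119 and 103 CPM in EedcKO 1, 2 and 3, at 314 in wild type 1 and at 190 in the library labelled wild type 2. The groups overlapped, and the log2 difference of -0.79 had a standard error of 0.37 (adjusted p = 0.354, edgeR). It was -0.40 without wild type 1 and -1.10 without the library labelled wild type 2. Sox1 itself was almost level between the libraries labelled wild type, at 233 and 232 CPM, whereas Sox1ot was not.

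The genes whose centred log2 CPM lay closest to each member were sought among 11349 genes over the 5 libraries, by root mean square difference. For Sox1 they were Ndufaf7 (0.0261), Por (0.0323) and Per1 (0.0364). For Sox3 they were Map4k1 (0.0637), Vwa8 (0.0662) and Rbm19 (0.0679), and for Sox21 they were Notch3 (0.0344), Mamld1 (0.0456) and Nkain2 (0.0457). Notch3, a receptor of neural progenitors, had 178 and 147 CPM in the libraries labelled wild type and 181, 195 and 228 in EedcKO. For Sox4 they were Arpc3 (0.0152), Hp1bp3 (0.0158) and Nom1 (0.0159). For Sox11 they were Exoc1 (0.0108), Cab39 (0.012) and Faim (0.0127), and for Sox12 they were Anapc2 (0.0112), Got2 (0.0119) and Gga1 (0.0127). Among the members, Sox4 and Sox11 were the closest pair (0.0607), Sox3 and Sox21 differed by 0.178, and Sox1 and Sox21 by 0.356. By rank of closeness among the 11349 genes, however, Sox11 was number 440 for Sox4. Sox21 was number 678 for Sox3 and 9415 for Sox1.

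Genes of the processes in which SOXB and SOXC act moved in both directions. Of 15 neural progenitor genes, 4 rose and 0 fell in edgeR, where 1.04% of all tested genes rose and 2.17% fell (median log2 difference 0.20, against 0.01 over all tested genes). Among them, Gli3, a transducer of hedgehog signals, rose from 159 ± 17.7 CPM (SD, n = 2) to 272 ± 15.1 (n = 3), and Pax6, a dorsal progenitor factor, rose from 177 ± 27.5 to 278 ± 5.33. Slc1a3 and Sall1 also rose. Of the 5 POU partner genes, 0 passed; Pou3f3 and Pou3f2 each had a log2 difference of 0.23 (adjusted p = 0.372 and adjusted p = 0.428, edgeR).

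Of 14 proneural and newborn neuron genes, 4 rose and 1 fell (median 0.29), against the same 1.04% and 2.17% of all genes. Eomes, a marker of intermediate progenitors, rose from 119 ± 20.2 CPM to 267 ± 36.2, and Neurog2, a proneural factor of dorsal progenitors, rose from 118 ± 10.4 to 205 ± 22.2. Neurog1 and Neurod4 rose too, by 1.48 and 2.40 on the log2 scale. Of 12 neuronal genes linked to SOXC, 0 rose and 2 fell (median -0.16), against 2.17% of all genes that fell. Prox1 fell from 118 ± 26 to 53.7 ± 14.8 CPM, and Mapt, the microtubule protein tau, from 464 ± 18 to 322 ± 9.33. The neuronal tubulin Tubb3 had a fitted ratio of 0.939 and the microtubule protein Dcx one of 0.975, and neither passed. These lists were chosen with earlier results in view, so their direction is not independent evidence.

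The calls in these lists turned on single libraries. Without the library labelled wild type 2, 3 progenitor genes and 6 proneural genes rose, against 2.07% of all genes, and 3 neuronal genes linked to SOXC fell, against 4.12%. Without EedcKO 3, edgeR called 0 genes in all 3 lists. Without EedcKO 2 it called 1, Neurod4, which rose, against 21 of 13860 tested genes. Without EedcKO 1, 2 progenitor genes and 5 proneural genes rose and 1 gene linked to SOXC fell. Of 13828 genes in that fit, 97 rose and 165 fell. Without wild type 1, 2 of the 5 POU partner genes rose, Pou3f2 and Pou2f1, against 433 of 14409 genes. In the fit without wild type 1, 6 neuronal genes linked to SOXC had a positive and 6 a negative log2 difference (median -0.03). Of these only Mapt fell, against 579 of 14409 genes. The medians of the progenitor and proneural lists stayed positive in all 5 of these fits, at 0.16 to 0.25 and 0.21 to 0.42. The median of the list linked to SOXC ran from -0.26 to -0.03.

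**Figure D5:**
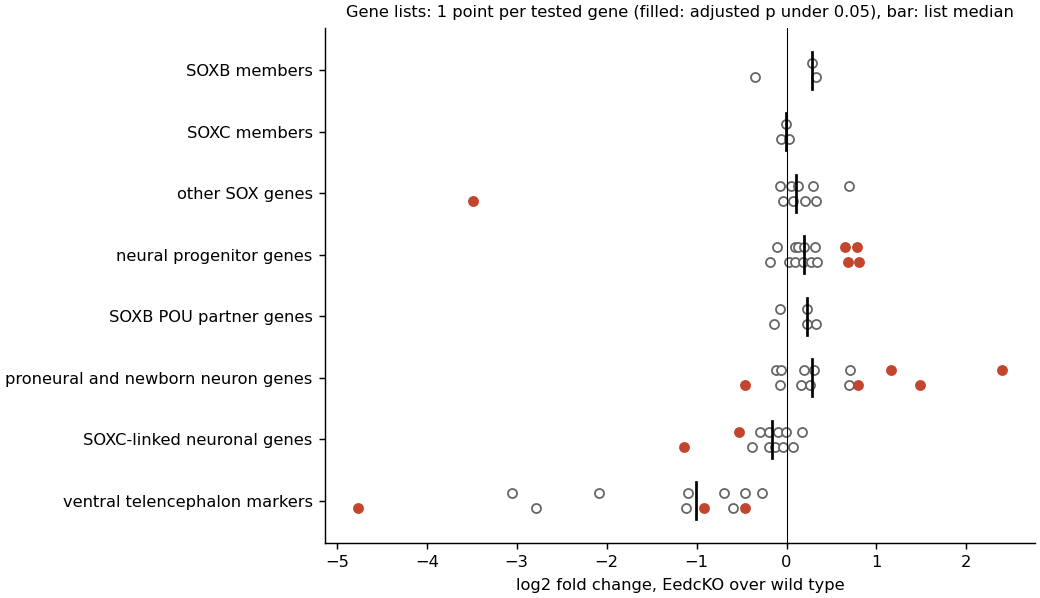
Log2 difference (EedcKO over wild type) of each tested gene by list, with filled points for genes past an adjusted p of 0.05. All 12 ventral telencephalon markers lie below 0, and the 3 SOXC members lie near 0.

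Markers of other regions and cell types differed between the same libraries. The summed CPM of 12 ventral telencephalon markers was 1171, 806 and 765 in EedcKO, with 1967 for wild type 1 and 1535 for the library labelled wild type 2. Of these 12 genes 3 fell, Lhx8 and Dlx5 among them, and all 12 had a negative log2 difference, against 2.17% of all genes that fell. The sum of the hypothalamus and diencephalon markers was 309 and 269 against 80.4, 113 and 74.2, and 3 of 7 tested fell (Otp, Fezf1 and Barhl2). Without the library labelled wild type 2, 3 ventral markers and 3 of 8 diencephalon markers fell, against 4.12% of all genes. Without EedcKO 3, edgeR called 0 genes in either list. Without EedcKO 2, it called 0 ventral and 2 diencephalon markers, against 63 of 13860 genes that fell. Without EedcKO 1, it called 6 and 1, against 165 of 13828 genes that fell. Without wild type 1, 1 ventral marker (Dlx5) and 4 diencephalon markers fell, against 579 of 14409 genes. These sums were lower in the same 3 libraries as Sox1, and their part in the Sox1 difference was not tested.

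The summed levels of 5 other marker lists overlapped between the groups. Hem and choroid plexus markers summed to 188 and 567 CPM in the libraries labelled wild type and 79.8 to 252 in EedcKO, and erythroid markers to 55.7 and 338 against 57.2 to 174. Mesenchyme markers summed to 411 and 648 against 461 to 935, endothelial markers to 221 and 290 against 227 to 311, and microglia markers to 75.3 and 102 against 69.3 to 91.2. In these 5 lists edgeR called 0 genes when all libraries were kept. All 9 hem and choroid plexus markers had a negative log2 difference (median -1.46), with Otx2 at -1.47 and Bmp4 at -1.45, and their groups did not overlap. All 7 tested erythroid markers (median -0.88) and 7 of 8 microglia markers (median -0.15) were negative as well. Without the library labelled wild type 2 these medians were 0.11, 0.95 and -0.01. Of the mesenchyme markers 6 of 8 were positive (median 0.32), with Prrx1 at 0.73 and Lum at 0.67, and of the endothelial markers 4 of 8 (median 0.01). By contrast, the groups did not overlap for the 6 forebrain markers, which summed to 912 and 971 against 1063 to 1237. Of these 1, Tbr1, rose, against 1.04% of all tested genes. Without the library labelled wild type 2, 3 of the 6 forebrain markers rose and 1 fell, against 2.07% and 4.12% of all genes. In that fit Msx1 of the hem list and Prrx1 of the mesenchyme list also rose. Without wild type 1, Msx1, Bmp4 and Bmp7 of the hem list and Twist1 of the mesenchyme list fell, against 579 of 14409 genes. The direction of Msx1 thus turned with the library left out.

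Leaving out each library in turn left 0 of 6 members past the threshold every time. The share of all genes called was 1.89% without EedcKO 1, 0.606% without EedcKO 2 and 0% without EedcKO 3, where 1887 genes had an unadjusted p under 0.05 in edgeR. It was 7.02% without wild type 1 and 6.2% without the library labelled wild type 2. Sox3 was the member that moved most, from a log2 difference of 0.08 without EedcKO 3 to 0.41 without EedcKO 1.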

How the data were processed

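RNA was measured in 5 libraries. The authors deposited whole-number read counts per gene (56196 rows) and TPM values (24926 rows). HISAT2 2.2.0 and mm10 are named per the submitters' processing notes; the counter, its annotation and its use of strand were not given in the labels used here. Count totals were 16.1% to 16.8% of the 30000000 mapped reads stated per sample. Rows without a symbol (2.01% to 2.16% of counts) were left out. Counts were filtered with filterByExpr, scaled by TMM and tested with edgeR 4.0.16 (robust glmQLFit, glmQLFTest) in R 4.3.3, with Benjamini-Hochberg adjustment over 13989 genes and a threshold of 0.05. Alternatives were other scalings and filters, a replicate block, each library left out, EedcKO 1 alone, limma-voom (limma 3.58.1), DESeq2 1.42.0 and limma on log2(TPM + 1) or log2(TPM + 0.1). The counting intervals are exact Poisson ones and cover counting error only. The code was tested on simulated data. The members, lists and rules were chosen with earlier results of these data known. Named genes were all 6 members, each SOX gene past the threshold, up to 4 called members of each list or otherwise the 2 with the smallest p, and the 3 genes most like each member; Sox2, Sox5, Sox1ot, Map1b, Tubb3 and Dcx were added after values were seen. Some listed genes enter the counts and sums of their lists but are not reported here by name.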

Additional observations from a re-analysis of the deposited data

How the results depend on the processing

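No alternative put any of the 6 members past the threshold in any of 17 fits. Sox1 and Sox12 kept a negative log2 difference and Sox21 a positive one in all 17. Near 0, the sign of the others turned. Sox11 was 0.02 with the replicate block and 0.00 in the 3 fits of TPM, and ran from -0.11 to 0.09 when each library was left out. Sox4 was -0.07 for EedcKO 1 alone and ran from -0.02 to 0.07 when each library was left out, and Sox3 was -0.05 for EedcKO 1 alone. The number of genes called was 675 with library size alone, 677 with DESeq2, 203 with log2(TPM + 1), 152 with log2(TPM + 0.1), 85 with TPM and no filter, and 0 to 1012 when each library was left out. EedcKO 1 alone gave 0 calls in edgeR (902 genes at an unadjusted p under 0.05), with the lone library assumed to vary like the others. Of the other SOX genes, 2 were called with library size alone and with DESeq2, 0 for EedcKO 1 alone, 0 with log2(TPM + 0.1), 0 with TPM and no filter, and 0 to 2 when each library was left out. The cause of these shifts was not tested.

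The labels share the numbers 1 and 2 between the groups but do not say that a number marks a litter. Deviations of same-numbered libraries correlated at -0.0412 and 0.13 across genes, and those of differently numbered ones at -0.16 to 0.16. The deviations of the 2 libraries labelled wild type mirror each other, so these values cannot show whether a number marks a pair. With the replicate block, to which EedcKO 3 adds nothing on the group difference, edgeR called 0 genes (2169 at an unadjusted p under 0.05) and 0 other SOX genes.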
